A study of Mus musculus with 16 samples.

Results

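Heat shock proteins and chaperonins are the protein-folding machinery of the cell, and their RNAs were followed here in protrusions and cell bodies of NIH/3T3 cells, an established line of mouse embryonic fibroblasts. The members were taken by gene symbol: the subunits of the cytosolic chaperonin TRiC (Tcp1 and the Cct genes), the Hsp90, Hspa, Hspb, Hspd, Hspe and Hsph genes, and the Dnaja, Dnajb and Dnajc genes, without pseudogenes. This gave 67 of the 12900 RNAs measured, all of which had passed the authors' filter on low values.

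Molecular chaperones bind unfolded chains and let them fold through rounds of binding and release driven by ATP. HSP70 proteins are recruited to their clients by J proteins (the DNAJ families) and recharged by nucleotide exchange factors such as the HSP110 proteins, while HSP90 acts later on kinases, receptors and other clients. TRiC, a double ring of different subunits, folds actin and tubulin, the building blocks of the cytoskeleton that protrusions are made of. HSP60 with its lid HSP10 does the same work inside mitochondria, and BiP (Hspa5) and GRP94 (Hsp90b1) serve the endoplasmic reticulum (ER).

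The cells carried a doxycycline-inducible construct, stably introduced with a lentivirus, in which the human β-globin coding sequence was followed by the β-globin 3′UTR in the HBB control line or by the 3′UTR of the mouse Pkp4 RNA in the Pkp4 cUTR line. The Pkp4 3′UTR was used to compete for the machinery that brings RNAs to protrusions. Both lines received 1 μg/ml doxycycline for 3 days, were serum-starved, plated for 2 h on filters with 3.0 μm pores, exposed to lysophosphatidic acid (LPA) from below for 1 h so that they sent protrusions through the pores, and were lightly fixed with paraformaldehyde (0.3%, 10 min). Protrusions (Ps) were then scraped from the lower side and cell bodies (CB) from the upper side, with 4 replicates of each fraction from each line, 16 samples in all. No parental cells without a construct and no cells without doxycycline were analysed here, so both lines share the inducer and a transgene.

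The samples held between 18660287 and 31260831 reads on the listed RNAs, and 3 reads, the limit that a count of 0 allows, corresponded to 0.0890 to 0.176 CPM (counts per 1000000 reads). The 7 fibroblast markers measured summed to 19250 to 31490 CPM, against at most 20.3 CPM for 2 epithelial, 22.5 CPM for 3 macrophage and leukocyte and 1.87 CPM for 2 endothelial markers. The summed fibroblast level was lower in protrusions (19250 to 20400 CPM in HBB, 21120 to 22530 CPM in Pkp4 cUTR) than in cell bodies (26430 to 30740 and 25900 to 31490 CPM). Of its 7 markers, 5 (the collagens, Fn1 and Pdgfrb) were lower and 2 (Vim and S100a4) higher in protrusions of both lines, and the nuclear RNAs Malat1 and Neat1 were lower in protrusions of both lines, with log2(FC) from −1.85 to −1.21. Whether these shifts bear on the chaperone RNAs was not tested. Reads counted on Pkp4, which include the construct's 3′UTR, were 4.44 ± 0.20 (SE) higher on the log2 scale in Pkp4 cUTR than in HBB cell bodies. Because values are relative to each library, more RNA of a gene and less RNA of other genes in a fraction cannot be told apart.

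The first question was which chaperone RNAs differed between protrusions and cell bodies. Enrichment is given as log2(FC), the difference in log2 CPM of protrusions minus cell bodies, with its standard error from limma over all 16 samples, and an RNA was called changed at a Benjamini-Hochberg adjusted p under 0.05 over all 12900 RNAs. In HBB cells 44 of the 67 members were called, 65.7% beside 57.3% of all RNAs. Of these, 32 were higher in protrusions, 47.8% of the members beside 28.3% of all RNAs, and 12 were lower, 17.9% beside 28.9%. The Pkp4 cUTR line had 43 called members (64.2% beside 56.7%), 31 higher (46.3% beside 28.2%) and 12 lower (17.9% beside 28.5%). The median log2(FC) of the members was 0.18 in HBB and 0.20 in Pkp4 cUTR cells, beside 0.01 in both lines over all RNAs.

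This split rests on the authors' scaling of the library sizes. With library sizes left unscaled, the median log2(FC) of all RNAs moved from 0.01 to −0.23 in HBB and from 0.01 to −0.25 in Pkp4 cUTR cells, and the members' median moved with it, to −0.06 and −0.07. The calls then became 22 higher and 23 lower in HBB, and 20 higher and 24 lower in Pkp4 cUTR cells. Of the calls made with scaling, 34 of 44 in HBB and 32 of 43 in Pkp4 cUTR cells passed without it. Those lost in both lines included Dnajc9, Dnajc21, Hspa9, Hspb2, Dnajb1, Dnajb14 and Dnajc13, all called higher with scaling. All directions below are therefore relative to the bulk of RNAs in the same fraction. As a share of all reads, which does not depend on that scaling, the 67 members together took 1.28 to 1.34% in HBB protrusions against 1.13 to 1.17% in HBB cell bodies, and 1.32 to 1.45% against 1.23 to 1.30% in Pkp4 cUTR cells. Hsp90ab1 and Hspa8, the members with the most reads, made up most of this difference. They took 0.774 to 0.812% against 0.633 to 0.664% in HBB and 0.791 to 0.893% against 0.731 to 0.748% in Pkp4 cUTR cells, while the share of the other 65 members overlapped between the fractions in both lines (0.497 to 0.552% against 0.49 to 0.512%, and 0.528 to 0.564% against 0.498 to 0.565%).

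Across the lines 29 members were higher in protrusions of both and 10 were lower in both. The log2(FC) had the same sign in both lines for 65 of the 67. Another 3 members (Dnajc24, Dnajc30 and Hspb7) were called higher in HBB alone and 2 (Cct3 and Hsp90b1) in Pkp4 cUTR alone. Likewise Dnajb12 and Hspa12b were called lower in HBB alone, and Dnajc14 and Dnajc22 in Pkp4 cUTR alone. A call in a single line does not show a difference between the lines, which is tested further below. In HBB cells all protrusion samples lay above all cell bodies for 29 of the 67 members and below them for 9. Over all 12900 RNAs this held for 3285 (25.5%) and 3453 (26.8%). In Pkp4 cUTR cells it held for 29 and 10 members, beside 2916 (22.6%) and 2866 (22.2%) of all RNAs.

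**Figure D1:**
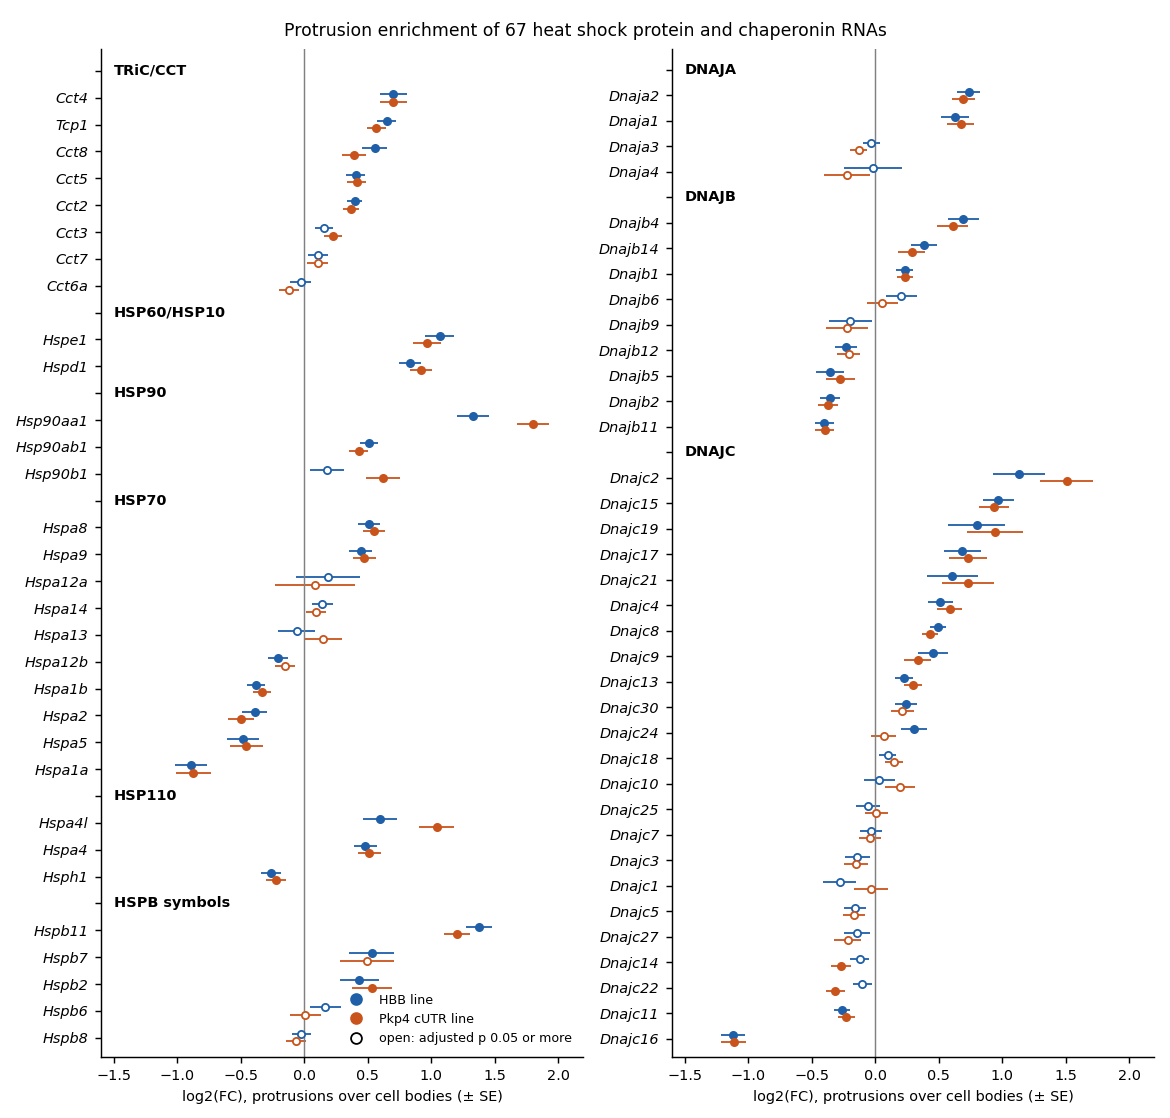
Log2(FC) of protrusions over cell bodies with its standard error for each of the 67 members, by family, in the HBB line (blue) and the Pkp4 cUTR line (orange). Filled points passed an adjusted p of 0.05. Hsp90aa1, Hspb11, Dnajc2 and Hspe1 lie farthest to the right and Dnajc16 (−1.12 in both lines) and Hspa1a (−0.89 and −0.88) farthest to the left.

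Large changes were few. With the study's threshold of a fold change above 2 and an unadjusted p under 0.05, 4 members were enriched in protrusions of HBB cells (Hsp90aa1, Hspb11, Dnajc2 and Hspe1), 5.97% of the members beside 4.54% of all RNAs. There were also 4 in Pkp4 cUTR cells (Hsp90aa1, Dnajc2, Hspb11 and Hspa4l), beside 5.07% of all RNAs. A single member, Dnajc16, was below the inverse of that threshold in each line, beside 4.0% and 2.92% of all RNAs. The share of members past the threshold was thus near that of all RNAs.

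Among the HSP90 genes, Hsp90aa1, which encodes the heat-inducible cytosolic form, had the highest log2(FC) of the members averaged over both lines. Its log2 CPM was 4.88, 5.10, 5.03 and 5.10 in the HBB protrusions and 3.95, 3.70, 3.64 and 3.48 in the HBB cell bodies. In Pkp4 cUTR cells it was 5.13, 5.48, 5.48 and 5.37 in protrusions and 3.50, 3.23, 3.56 and 3.97 in cell bodies. Every protrusion sample lay above every cell body sample of its line by a wide gap. The fold change was 2.51 in HBB (log2(FC) 1.33 ± 0.12, adjusted p = 1.24e-07) and 3.48 in Pkp4 cUTR cells (1.80 ± 0.13, adjusted p = 1.08e-08). A stretch of 2255 bases of the Hsp90aa1 transcript is near-identical to the gene model Gm12346, and such stretches make up 68.7% of its length, so its level is uncertain to the extent that reads could be placed on such copies.

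Hsp90ab1, the constitutive cytosolic form, was the most abundant member. It had 12.64, 12.52, 12.74 and 12.57 log2 CPM in HBB protrusions against 12.14, 12.11, 12.13 and 12.03 in HBB cell bodies, and 12.89, 12.73, 12.76 and 12.70 against 12.39, 12.39, 12.34 and 12.26 in Pkp4 cUTR cells. The fractions were apart in both lines, at a log2(FC) of 0.51 ± 0.07 (adjusted p = 1.11e-05) and 0.43 ± 0.07 (8.63e-05). This call depended on the normalization, although it held in both lines with unscaled libraries. Quantile normalization forces each library onto the same distribution. After it the log2(FC) became −0.16 (adjusted p = 0.19) in HBB and −0.20 (adjusted p = 0.0923) in Pkp4 cUTR cells. Per kilobase of exon, the Hsp90ab1 level was 449 ± 47.8 (SD, n = 4) times that of Hsp90aa1 in HBB cell bodies and 254 ± 30.2 times in HBB protrusions, and 590 ± 138 and 226 ± 40.3 times in Pkp4 cUTR cells. The ranges of this ratio did not overlap between the fractions of a line, 383 to 493 against 224 to 284 in HBB and at least 413 against at most 286 in Pkp4 cUTR cells.

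Hsp90b1 encodes GRP94, the HSP90 of the ER. Its log2 CPM was 6.25, 6.48, 5.97 and 6.29 in protrusions and 6.37, 5.98, 5.99 and 5.92 in cell bodies of HBB cells, overlapping ranges, with a log2(FC) of 0.18 ± 0.14 (adjusted p = 0.262). In Pkp4 cUTR cells it was 6.37, 6.90, 6.77 and 6.66 against 6.14, 5.79, 5.94 and 6.34, which did not overlap, with a log2(FC) of 0.62 ± 0.13 (adjusted p = 7.72e-04). The HBB cell body sample of replicate 1 stood above the other 3. Hsp90b1 shares exon sequence with the gene models Gm15344 on its own strand and 1810014B01Rik on the other.

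Both RNAs of the mitochondrial chaperonin were higher in protrusions. Hspd1 encodes HSP60, the folding chamber, and Hspe1 encodes HSP10, its lid. Hspd1 had 6.46, 6.64, 6.65 and 6.61 log2 CPM in HBB protrusions and 5.79, 5.72, 5.69 and 5.83 in HBB cell bodies, and 6.63, 6.90, 7.01 and 6.79 against 5.93, 5.77, 5.82 and 6.14 in Pkp4 cUTR cells. Hspe1 had 8.55, 8.41, 8.77 and 8.39 against 7.45, 7.37, 7.46 and 7.58 in HBB, and 8.57, 8.71, 8.93 and 8.39 against 7.75, 7.52, 7.53 and 7.93 in Pkp4 cUTR cells. For both genes the fractions were apart in both lines. The log2(FC) of Hspd1 was 0.83 ± 0.09 in HBB (adjusted p = 4.20e-07) and 0.92 ± 0.09 in Pkp4 cUTR cells (2.04e-07), and that of Hspe1 was 1.07 ± 0.11 (4.46e-07) and 0.97 ± 0.11 (1.77e-06).

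The level of Hspe1 per kilobase was 5.85 ± 0.25 (SD, n = 4) times that of Hspd1 in HBB cell bodies, 6.92 ± 0.92 in HBB protrusions, 6.12 ± 0.20 in Pkp4 cUTR cell bodies and 6.34 ± 0.65 in Pkp4 cUTR protrusions. The range in HBB protrusions, 6.11 to 7.77, met that in HBB cell bodies, 5.61 to 6.11, at its end, and the ranges in Pkp4 cUTR cells overlapped. The 2 genes sit head to head on chromosome 1 on opposite strands (Hspd1 at chr1:55077835-55088243, Hspe1 at chr1:55088132-55091307, GRCm38) and their exons overlap at the 5′ ends. Whether the counting used the strand is not given in the sources used here, so reads in that overlap cannot be assigned with certainty. Near-identical stretches, the longest (1722 bases) shared with the pseudogene Hspd1-ps3, cover 71.1% of the Hspd1 transcript, so its level and the ratio to Hspe1 are uncertain in the same way as for Hsp90aa1.

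They also share their promoter region. A stretch before the annotated Hspe1 start and inside the Hspd1 gene model holds the motif bound by heat shock factor. This transcription factor raises chaperone genes after heat. The motif searched, the heat shock element, was GAA, 2 free bases, TTC, 2 free bases and GAA, on both strands of the 300 bases around each start (250 before to 50 after) in RefSeq, build GRCm38.p6. It was found in 4 of the 54 members with a promoter in that set, 7.41%, beside 0.62% of the 9065 tested genes and 0.66% of all 27025 promoters. The sites are shown because they mark the members with this exact pattern inside the window searched. Other forms of the element were not searched for, and members without a promoter in that set were not searched at all. Each is printed 5′ to 3′ along its gene with 3 flanking bases where the window holds them, and the capitals mark the fixed letters of the motif or of its complement. Distances are from the RefSeq starts, which for Hspd1 and Hspe1 differ from the gene models above.
Hspe1, plus strand, motif at chr1:55088064-55088076, 84 bases before the start: ctaGAAccTTCcgGAAggc
Hspd1, minus strand, motif at chr1:55088059-55088071, 139 bases before the start: ccgGAAggTTCtaGAAcgg
Dnajb6, plus strand, motif at chr5:29735852-29735864, 46 bases before the start: cgaGAAtcTTCcgGAAcgc
Hsph1, minus strand, motif at chr5:149636288-149636300, 36 bases after the start: agaTTCtgGAAagTTCt

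The Hspd1 and Hspe1 matches are overlapping letters of a single stretch read from either side. The 4 genes with this motif did not move together: Hspd1 and Hspe1 were higher in protrusions, Hsph1 was lower, and Dnajb6, a J protein that holds back aggregation, had a log2(FC) of 0.20 ± 0.12 and 0.06 ± 0.12 (adjusted p = 0.161 and 0.718). Of 16 measured RNAs on a list of heat-inducible targets of heat shock factor, 8 were higher and 5 lower in protrusions of HBB cells, with a median log2(FC) of 0.17, and again 8 and 5 in Pkp4 cUTR cells, with a median of 0.18. The share called higher was 50% in each line, beside 28.3% and 28.2% of all RNAs. The share called lower was 31.2% in each line, near that of all RNAs (28.9% and 28.5%).

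**Figure D2:**
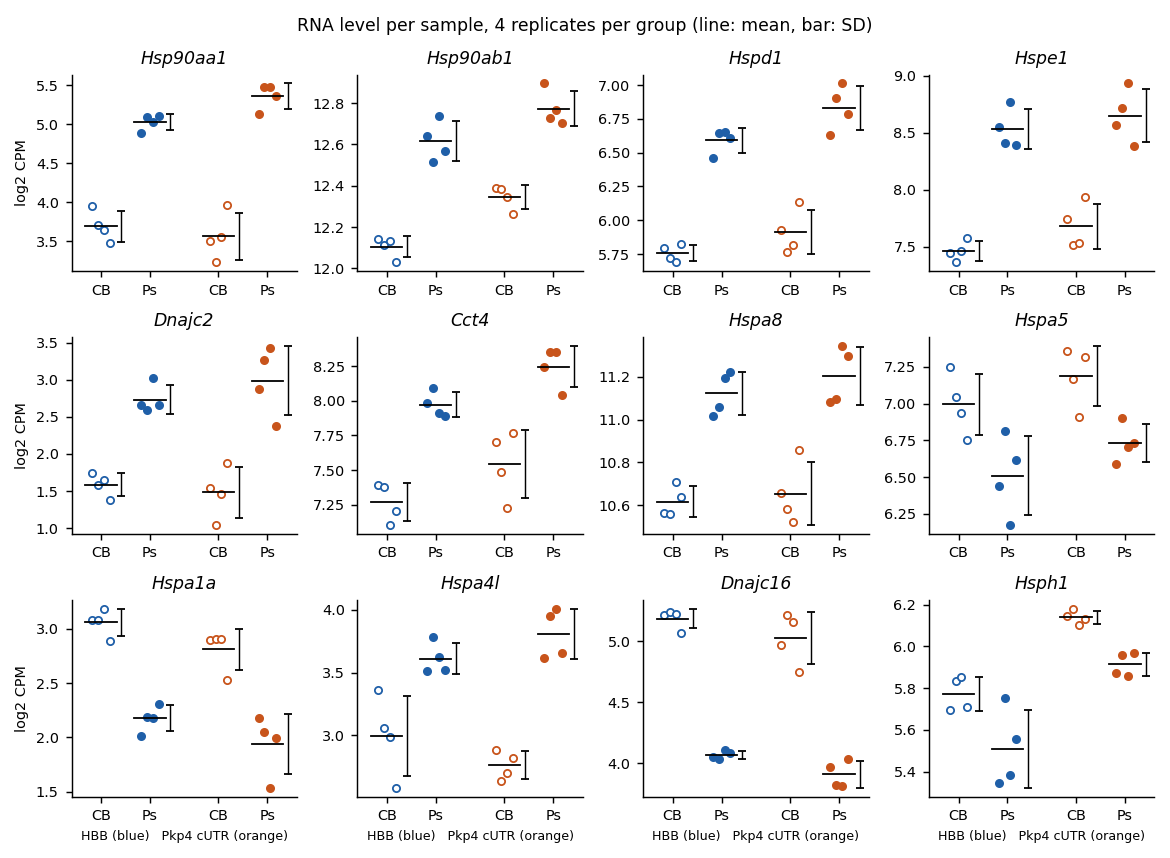
Log2 CPM of 12 members in each of the 16 samples, with open points for cell bodies (CB) and filled points for protrusions (Ps), blue for HBB and orange for Pkp4 cUTR, a line at the mean and a bar for the SD of the 4 replicates. In Hsp90aa1, Hspd1, Hspe1 and Dnajc2 each protrusion sample lies above each cell body sample of the same line, and in Dnajc16 and Hspa1a each lies below. Each panel has its own vertical axis, which does not start at 0.

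TRiC subunits were unequal. Of the 8 measured, 5 were higher in HBB protrusions (Cct4, Tcp1, Cct8, Cct5 and Cct2) and none was lower, with a median log2(FC) of 0.40. In Pkp4 cUTR cells 6 were higher, the same 5 and Cct3, with a median of 0.38. The share called higher was 62.5% and 75%, beside 28.3% and 28.2% of all RNAs. The share called lower was 0% in each line, beside 28.9% and 28.5%. Cct4 had 7.99, 8.09, 7.91 and 7.89 log2 CPM in HBB protrusions against 7.39, 7.38, 7.10 and 7.20 in HBB cell bodies, and 8.24, 8.35, 8.35 and 8.04 against 7.70, 7.49, 7.23 and 7.77 in Pkp4 cUTR cells, with no overlap in either line. Its log2(FC) was 0.70 ± 0.11 in both lines (adjusted p = 2.11e-05 and 2.59e-05), followed by Tcp1 with 0.65 ± 0.07 and 0.57 ± 0.07 and Cct8 with 0.55 ± 0.10 and 0.39 ± 0.10. Cct5 and Cct2 were close to each other, at 0.41 ± 0.07 and 0.40 ± 0.06 in HBB cells.

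The other TRiC subunits stayed near the bulk of RNAs. Cct3 had a log2(FC) of 0.15 ± 0.07 in HBB (adjusted p = 0.0698) and 0.22 ± 0.07 in Pkp4 cUTR cells (adjusted p = 0.0118), and the latter call ended without the Pkp4 cUTR cell body of replicate 3 (0.18, adjusted p = 0.0502). For Cct7 the values were 0.11 ± 0.08 in each line, with 95% intervals of −0.06 to 0.28. For Cct6a they were −0.03 ± 0.08 (−0.20 to 0.14) and −0.12 ± 0.08 (−0.29 to 0.05). In the HBB cell bodies Cct7 was 8.71, 8.73, 8.73 and 8.93 log2 CPM, so that the sample of replicate 4 alone reached the protrusion range of 8.82 to 8.95. With unscaled libraries Cct6a was called lower in both lines (−0.27 and −0.39), Cct3 in Pkp4 cUTR cells turned to −0.04, and of the other 5 calls in that line only Cct4 (0.44) and Tcp1 (0.30) passed, while Cct2 (0.10), Cct5 (0.15) and Cct8 (0.13) did not.

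Although the subunits occur once per ring, their RNA levels per kilobase of exon spanned an order of magnitude. The lowest, Cct6a, was matched to a gene model annotated without a coding sequence, so its length, and with it this span, is uncertain. In HBB cell bodies Cct5 was highest at 204 ± 5.09 CPM per kb (SD, n = 4), then Cct2 at 172 ± 4.15, Cct7 at 64.7 ± 4.96, Tcp1 at 49.0 ± 2.12, Cct4 at 36.9 ± 3.53, Cct8 at 34.6 ± 4.57, Cct3 at 31.9 ± 0.75 and Cct6a at 18.4 ± 1.06. The samples of neighbouring subunits were apart except for Cct4 and Cct8 and for Cct8 and Cct3. In HBB protrusions the order was Cct5, Cct2, Tcp1, Cct7, Cct4, Cct8, Cct3 and Cct6a, with all neighbours apart, so that Tcp1 (76.8 ± 3.41 CPM per kb) and Cct7 (69.7 ± 2.67) had changed places. In Pkp4 cUTR cell bodies 4 of the 7 neighbouring pairs overlapped. These levels use the union of all annotated exons as the length, and with the longest transcript instead the first 4 members of the whole set kept their ranks while Cct3 rose above Cct8. With that length Cct7 also stayed above Tcp1 in HBB protrusions (122 against 113 CPM per kb) as in HBB cell bodies (113 against 72.2). The exchange of places between Tcp1 and Cct7 thus held only for the exon-union length.

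**Figure D3:**
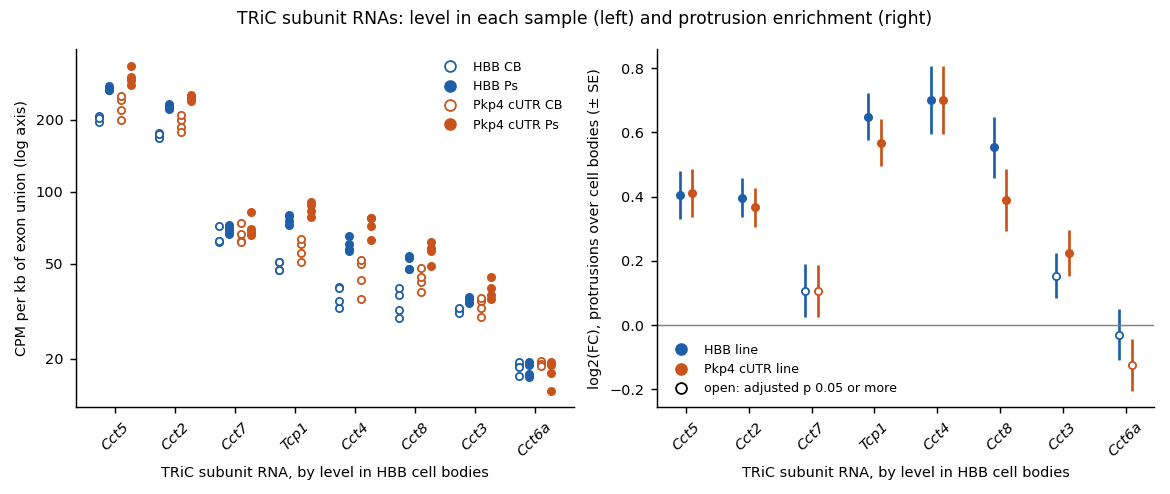
Left, level of the 8 TRiC subunit RNAs in each sample as CPM per kilobase of exon union on a log axis, and right, their log2(FC) of protrusions over cell bodies with its standard error, blue for HBB and orange for Pkp4 cUTR. Open points are cell bodies on the left and an adjusted p of 0.05 or more on the right. Cct5 and Cct2 lie above the other 6 subunits in all samples, and Cct7 and Cct6a, of high and low level, show the smallest enrichment.

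TRiC's partners and clients were taken from lists outside the members. Of 9 prefoldin and phosducin-like RNAs, whose proteins hand unfolded actin and tubulin to the ring or regulate it, 7 were higher in protrusions and none lower in each line. That is 77.8% called higher, beside 28.3% and 28.2% of all RNAs, with median log2(FC) of 0.56 in HBB and 0.39 in Pkp4 cUTR cells. Of 10 actin and tubulin RNAs, 2 were higher in each line (20%, beside 28.3% and 28.2% of all RNAs). In HBB 2 were lower (20% beside 28.9%) and in Pkp4 cUTR cells none (beside 28.5%), with medians of −0.02 and −0.01. The client RNAs thus sat near the median of all RNAs (0.01). Of 36 co-chaperones and regulators of HSP70 and HSP90 outside the members, 14 were higher and 11 lower in HBB protrusions (median 0.14), and 14 and 10 in Pkp4 cUTR cells (median 0.13). The shares called lower, 30.6% and 27.8%, were near those of all RNAs (28.9% and 28.5%), and 38.9% were called higher in each line, beside 28.3% and 28.2%.

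The HSP70 family was divided. Of 10 measured members, 2 were higher (Hspa8 and Hspa9) and 5 lower in HBB protrusions (Hspa1a, Hspa1b, Hspa2, Hspa5 and Hspa12b), with a median log2(FC) of −0.13, and 2 were higher and 4 lower in Pkp4 cUTR cells. The share called higher was 20% in each line, beside 28.3% and 28.2% of all RNAs. The share called lower was 50% and 40%, beside 28.9% and 28.5%. Hspa8 encodes HSC70, the constitutive cytosolic form, and had 11.02, 11.06, 11.20 and 11.22 log2 CPM in HBB protrusions against 10.56, 10.56, 10.71 and 10.64 in cell bodies. In Pkp4 cUTR cells it had 11.08, 11.09, 11.34 and 11.30 against 10.66, 10.58, 10.52 and 10.86. The fractions were apart in both lines, with log2(FC) of 0.51 ± 0.09 (adjusted p = 7.30e-05) and 0.55 ± 0.09 (3.78e-05), the latter not passing after quantile normalization. Near-identical stretches cover 64.8% of the Hspa8 transcript and 4 of the gene models with such copies are in the same table, so its level is uncertain.

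Hspa1a and Hspa1b encode the inducible HSP70 and went the other way. Hspa1a had 2.02, 2.19, 2.18 and 2.31 log2 CPM in HBB protrusions against 3.08, 3.08, 3.18 and 2.89 in cell bodies, and 2.17, 2.05, 1.54 and 1.99 against 2.90, 2.91, 2.91 and 2.53 in Pkp4 cUTR cells. All protrusion samples lay below the cell bodies of their line, at 0.538 and 0.545 of the cell body level (log2(FC) −0.89 ± 0.13 and −0.88 ± 0.14, adjusted p = 1.34e-05 and 4.02e-05). Hspa1b had log2(FC) of −0.38 ± 0.07 and −0.33 ± 0.07 (adjusted p = 1.82e-04 and 6.85e-04). The 2 transcripts share a near-identical stretch of 2201 bases, 74.0% and 78.5% of their lengths, so the division of reads between them is uncertain. The level of Hspa8 per kilobase was 26.4 ± 1.58 times that of Hspa1b in HBB cell bodies and 49.1 ± 6.06 times in HBB protrusions, and 27.9 ± 2.82 and 51.6 ± 7.01 times in Pkp4 cUTR cells, with no overlap of the fractions in either line.

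Hspa2, an HSP70 best known from the testis, was lower in protrusions of both lines, at −0.39 ± 0.10 and −0.50 ± 0.10. Hspa9, the mitochondrial form, was higher, at 0.45 ± 0.09 and 0.47 ± 0.09. The 3 HSP110 genes, exchange factors of HSP70, were also divided. Hspa4 was higher in protrusions at 0.48 ± 0.09 and 0.51 ± 0.09, and Hspa4l at 0.59 ± 0.13 and 1.04 ± 0.14, while Hsph1 was lower at −0.26 ± 0.08 (adjusted p = 0.00821) and −0.22 ± 0.08 (adjusted p = 0.0193). After quantile normalization the Hsph1 value in Pkp4 cUTR cells was −0.17 and no longer passed (adjusted p = 0.075).

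Among the RNAs of ER chaperones, few were called higher in protrusions. Of the 14 ER members, 1 was higher (Dnajb14) and 4 lower (Hspa5, Dnajb11, Dnajb12 and Dnajc16) in HBB cells, with a median log2(FC) of −0.13, and 2 were higher (Dnajb14 and Hsp90b1) and 4 lower (Hspa5, Dnajb11, Dnajc14 and Dnajc16) in Pkp4 cUTR cells, with a median of −0.09. The share called lower, 28.6% in each line, was that of all RNAs (28.9% and 28.5%), and the share called higher was 7.14% and 14.3%, beside 28.3% and 28.2%. Hspa5 encodes BiP, the HSP70 of the ER, and had 6.44, 6.81, 6.17 and 6.62 log2 CPM in HBB protrusions against 7.25, 7.05, 6.93 and 6.75 in cell bodies. Its HBB ranges overlapped through the protrusion sample of replicate 2 and the cell body sample of replicate 4. In Pkp4 cUTR cells it had 6.59, 6.90, 6.70 and 6.73 against 7.36, 7.17, 6.91 and 7.32, which did not overlap, and the log2(FC) was −0.48 ± 0.13 (adjusted p = 0.00365) and −0.46 ± 0.13 (adjusted p = 0.00562).

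Dnajc16, a J protein of the ER membrane, was the member most depleted from protrusions. It had 4.05, 4.03, 4.11 and 4.08 log2 CPM in HBB protrusions against 5.21, 5.24, 5.22 and 5.07 in cell bodies, and 3.97, 3.82, 3.81 and 4.03 against 4.97, 5.22, 5.16 and 4.75 in Pkp4 cUTR cells. The protrusion samples were tightly grouped and far below the cell bodies, at 0.460 and 0.461 of their level (log2(FC) −1.12 ± 0.09 and −1.12 ± 0.10, adjusted p = 3.77e-08 and 8.35e-08). Dnajb11, a BiP co-chaperone in the ER lumen, was lower at −0.40 ± 0.07 and −0.40 ± 0.08.

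The ER stress response element, a promoter motif of CCAAT, 9 free bases and CCACG, was found on either strand in 3 of the 54 member promoters, 5.56%, beside 0.18% of the tested genes and 0.14% of all promoters. Its matches are printed as above, 5′ to 3′ along the gene, with the fixed letters in capitals. They mark the members with this exact pattern inside the window searched.
Hspa5, plus strand, motif at chr2:34772025-34772043, 65 bases before the start: tcaCCAATcggaggcctCCACGacg
Hsp90b1, minus strand, motif at chr10:86705533-86705551, 107 bases before the start: gtgCGTGGtgaggcacgATTGGtga
Hsp90b1, minus strand, motif at chr10:86705638-86705656, 212 bases before the start: agcCCAATcgcaaggagCCACGctt
Dnajc3, plus strand, motif at chr14:118937827-118937845, 105 bases before the start: caaCCAATcagcgccaaCCACGacc

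These 3 genes did not share a direction either, with Hspa5 lower in both lines, Hsp90b1 higher in Pkp4 cUTR cells, and Dnajc3, an ER J protein, at −0.14 ± 0.10 and −0.15 ± 0.10 (adjusted p = 0.225 and 0.194). Over 15 RNAs of the unfolded protein response, the program that raises ER chaperones, none was higher and 8 were lower in HBB protrusions (median log2(FC) −0.24), and 1 was higher and 8 lower in Pkp4 cUTR cells (median −0.27). The share called lower was 53.3% in each line, beside 28.9% and 28.5% of all RNAs. The share called higher was 0% and 6.67%, beside 28.3% and 28.2%. The most depleted of the 15 were no members: Hyou1, an ER exchange factor for BiP, at −1.07 and −0.95, and Pdia4, a protein disulfide isomerase, at −1.08 and −1.10.

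The J proteins outside the ER moved in both directions. All 5 measured J proteins of the nucleus, the ribosome and the spliceosome were higher in protrusions of both lines, beside 28.3% and 28.2% of all RNAs. Their medians were 0.61 and 0.73, although with unscaled libraries Dnajc9 (0.22 and 0.07) and Dnajc21 (0.38 and 0.47) did not pass. Dnajc2, a ribosome-associated J protein, had 6.33, 6.01, 8.10 and 6.28 CPM in HBB protrusions against 3.33, 2.97, 3.12 and 2.58 in cell bodies, and 7.35, 9.56, 10.8 and 5.19 against 2.89, 2.04, 2.74 and 3.65 in Pkp4 cUTR cells. The fractions were apart in both lines, with fold changes of 2.19 and 2.84 (log2(FC) 1.13 ± 0.21 and 1.51 ± 0.21, adjusted p = 1.39e-04 and 9.24e-06). Dnajc17, a nuclear J protein, followed with 0.68 ± 0.15 and 0.73 ± 0.15, but 90.5% of its transcript is near-identical to Gm6257, a gene model in the same table. Dnajc21, which acts in ribosome assembly, had 0.61 ± 0.20 and 0.73 ± 0.20, and its HBB call ended without the HBB protrusion sample of replicate 3 (0.52, adjusted p = 0.0536).

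Mitochondrial members were mostly higher. Of 8 measured, 6 were higher (75% beside 28.3% of all RNAs) and 1 lower (12.5% beside 28.9%) in HBB protrusions (median log2(FC) 0.62). In Pkp4 cUTR cells 5 were higher (62.5% beside 28.2%) and 1 lower (12.5% beside 28.5%), with a median of 0.70. Besides the chaperonin pair and Hspa9, these were Dnajc15 (0.97 ± 0.12 and 0.93 ± 0.12) and Dnajc19 (0.80 ± 0.22 and 0.94 ± 0.22), J proteins of the motor that pulls proteins into mitochondria, and in HBB cells also Dnajc30. The lower one was Dnajc11, a protein of the mitochondrial membrane organization machinery, at −0.26 ± 0.07 and −0.23 ± 0.07. Dnajc19 was expressed weakly, between −0.60 and 1.32 log2 CPM. Of the other cytosolic J proteins, Dnaja2, an HSC70 partner, was higher at 0.74 ± 0.09 and 0.69 ± 0.09, and Dnajb2, a J protein that guides clients to degradation, was lower at −0.35 ± 0.08 and −0.37 ± 0.08. Over all 36 J proteins 16 were higher (44.4% beside 28.3%) and 6 lower (16.7% beside 28.9%) in HBB cells, with a median of 0.06.

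**Figure D4:**
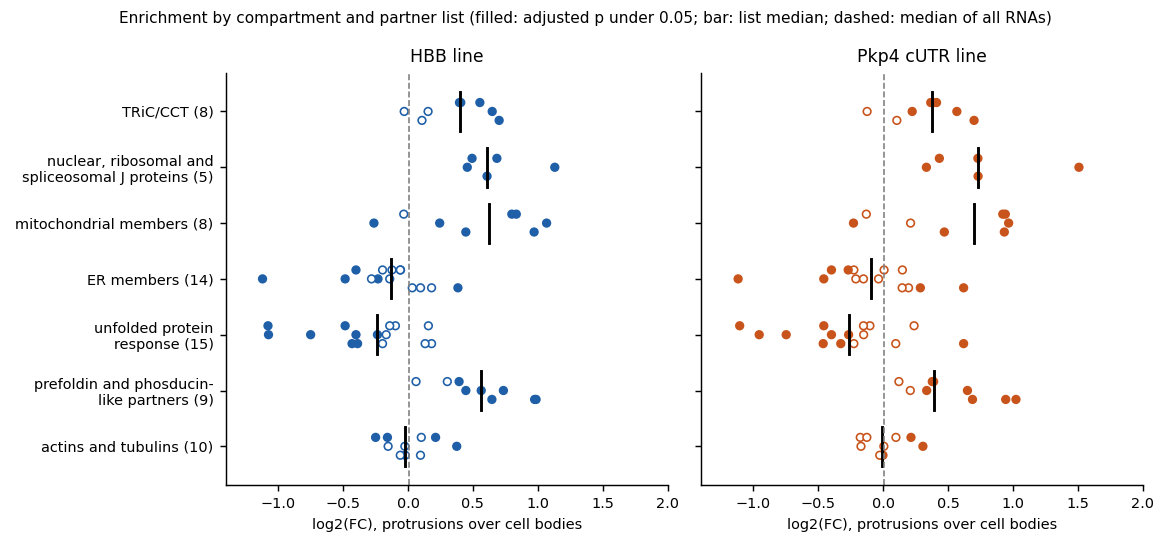
Log2(FC) of protrusions over cell bodies for the RNAs of 7 lists, in the HBB line on the left and the Pkp4 cUTR line on the right. Filled points passed an adjusted p of 0.05, the black bar is the median of the list and the dashed line the median of all RNAs, and points are offset vertically for legibility. The nuclear, ribosomal and spliceosomal J proteins and the mitochondrial members have the highest medians (0.61 and 0.62 in HBB cells) and the unfolded protein response the lowest (−0.24).

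Of 4 measured small heat shock proteins, which hold unfolding clients without ATP, 2 were higher in HBB protrusions (50% beside 28.3% of all RNAs). In Pkp4 cUTR protrusions 1 was higher (25% beside 28.2%), and none was lower in either line. Hspb8, the most abundant per kilobase, had a log2(FC) of −0.02 ± 0.08 (95% interval −0.19 to 0.14) and −0.07 ± 0.08 (−0.23 to 0.09), although with unscaled libraries it was called lower (−0.26 and −0.33). Hspb6 had 0.17 ± 0.12 and 0.01 ± 0.12 (adjusted p = 0.25 and 0.963). Hspb2 was higher at 0.43 ± 0.15 and 0.53 ± 0.16, but its HBB call ended without the HBB cell body of replicate 3 (0.37, adjusted p = 0.0718) or the HBB protrusion of replicate 1 (0.39, adjusted p = 0.0623), and it overlaps Cryab on the other strand. Hspb7, a form known from heart and muscle, was higher in HBB cells at 0.53 ± 0.18, a call that ended without the HBB protrusion of replicate 1 (0.46, adjusted p = 0.0575), and had 0.49 ± 0.21 (adjusted p = 0.0577) in Pkp4 cUTR cells.

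Hspb11 was taken in by its symbol, but its protein is known as a subunit of the transport particles of cilia, not as a chaperone. It had 49.5, 52.2, 63.8 and 49.9 CPM in HBB protrusions against 19.2, 22.6, 19.6 and 21.2 in cell bodies, and 51.0, 55.3, 58.7 and 49.9 against 23.3, 22.2, 20.1 and 28.5 in Pkp4 cUTR cells. With the fractions far apart in both lines, its fold changes were 2.60 and 2.30 (95% intervals of log2(FC) 1.16 to 1.59 and 0.99 to 1.42, adjusted p = 1.14e-08 and 6.90e-08). Without it the upper end of the set consists of Hsp90aa1, Dnajc2, Hspe1, Dnajc15 and Hspd1.

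Calls of some members named only in counts hung on single samples. In HBB cells Dnajb12, Dnajc24, Dnajc30 and Hspa12b each lost their call without HBB protrusion replicate 1 (−0.23, 0.26, 0.24 and −0.18) and without other samples of that line, and in Pkp4 cUTR cells Dnajb14 lost it without cell body replicate 2 or 3 or protrusion replicate 3 (0.22 to 0.24), and Dnajb5 without any of 10 samples (−0.30 to −0.24). In all, 37 of the 44 calls in HBB and 40 of the 43 in Pkp4 cUTR cells held with each sample left out in turn.

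Shorter transcripts tended to higher log2(FC), among the members as over all genes. The 15 members with a longest transcript under 2000 bases had a median log2(FC) of 0.41 in HBB cells, with 11 higher (73.3%) and none lower, beside a median of 0.33 with 42% higher and 11.4% lower over all tested genes of that length. The 31 members of 2000 to 4000 bases had a median of 0.18, with 45.2% higher and 25.8% lower, beside −0.06, 24.7% and 33.1% over all genes. The 21 members of 4000 bases or more had a median of −0.06, with 33.3% higher and 19% lower, beside −0.15, 21.1% and 38.4%. Pearson's r between length and log2(FC) was −0.25 over the 67 members and −0.29 over 12321 genes in HBB cells, and −0.15 and −0.24 in Pkp4 cUTR cells. The genes share their libraries and are not independent. In every length class the members' median lay above that of all genes, and its part in the members' shift was not tested further.

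The second question was whether the enrichment of chaperone RNAs differed between the lines, given by log2(Diff FC), the log2(FC) in Pkp4 cUTR minus that in HBB cells. With a single line per construct, an effect of the Pkp4 3′UTR and other differences between the lines cannot be told apart. No member and none of the 12900 RNAs passed an adjusted p of 0.05 in limma (0.0% called). At an unadjusted p under 0.05 there were 3 members, 4.48%, beside 2.33% of all RNAs (300). All 3 were more enriched in Pkp4 cUTR cells: Hsp90aa1 by 0.47 ± 0.18 (95% interval 0.10 to 0.84), Hspa4l by 0.45 ± 0.19 (0.05 to 0.85) and Hsp90b1 by 0.44 ± 0.19 (0.04 to 0.84), each with an adjusted p of 1.00. At an unadjusted p under 0.1, Dnajc22 joined them with −0.21 ± 0.11 (−0.44 to 0.01), giving 4 members, 5.97%, beside 5.8% of all RNAs, a share near the background. The study combined its p-value cutoff with one on log2(Diff FC), among RNAs enriched in protrusions of HBB cells, which was not done here.

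For Hspa4l the difference had parts in both fractions, neither of which was called, −0.26 ± 0.14 in cell bodies and 0.19 ± 0.13 in protrusions (Pkp4 cUTR minus HBB, adjusted p = 0.289 and 0.417). It had 3.51, 3.78, 3.63 and 3.52 log2 CPM in HBB protrusions and 3.36, 3.06, 2.99 and 2.58 in HBB cell bodies, against 3.62, 3.95, 4.01 and 3.66 in protrusions and 2.88, 2.64, 2.70 and 2.82 in cell bodies of Pkp4 cUTR cells. The same fractions overlapped between the lines, and the HBB cell bodies spread most. For the members with no difference called the data still allow some: the 95% interval of log2(Diff FC) was −0.44 to 0.24 for Hspe1, −0.17 to 0.35 for Hspd1, −0.32 to 0.31 for Cct4, −0.30 to 0.13 for Hsp90ab1 and −0.28 to 0.29 for Dnajc16.

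The third question was whether the level of chaperone RNAs differed between the lines. The labels do not say whether equal replicate numbers pair the lines. A link is inferred only from correlated deviations (mean correlation 0.483 in cell bodies and 0.316 in protrusions). The fit with the replicate number as a block is therefore given where it changed a call. In cell bodies 8 members were called, 11.9% beside 8.97% of all RNAs, 7 higher (10.4% beside 3.42%) and 1 lower (1.49% beside 5.55%) in Pkp4 cUTR cells. In protrusions 6 were called, 8.96% beside 7.16% of all RNAs, 4 higher (5.97% beside 2.89%) and 2 lower (2.99% beside 4.26%). All Pkp4 cUTR samples lay above all HBB samples for 9 of the 67 members and below them for 4 in cell bodies. Over all 12900 RNAs this held for 837 (6.49%) and 1046 (8.11%). In protrusions it held for 7 and 8 members, beside 814 (6.31%) and 955 (7.4%) of all RNAs. The cell body count fell to 5 without HBB replicate 2 or 3 and to 4 without Pkp4 cUTR replicate 1, and the protrusion count fell to 3 without HBB replicate 4.

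Hsph1 and Dnajc9 were higher in Pkp4 cUTR cells in both fractions and kept their calls in every alternative fit. Hsph1 had 6.14, 6.18, 6.10 and 6.13 log2 CPM in Pkp4 cUTR cell bodies against 5.69, 5.83, 5.85 and 5.71 in HBB cell bodies, and 5.87, 5.96, 5.86 and 5.97 in Pkp4 cUTR protrusions against 5.35, 5.75, 5.38 and 5.56 in HBB protrusions. No samples overlapped, and the differences were 0.37 ± 0.08 (adjusted p = 0.00499) and 0.40 ± 0.08 (adjusted p = 0.0039). Dnajc9, a histone chaperone with a J domain, had 3.58, 3.43, 3.60 and 3.81 against 2.74, 2.86, 3.22 and 3.04 in cell bodies, and 3.76, 3.93, 4.03 and 4.04 against 3.28, 3.46, 3.60 and 3.37 in protrusions. It too was apart in both fractions, with differences of 0.64 ± 0.11 (adjusted p = 0.00112) and 0.51 ± 0.11 (adjusted p = 0.00943).

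Dnaja4, a cytosolic J protein, had the largest difference of the called members but few reads. Its reads numbered 32 to 59 in Pkp4 cUTR cell bodies and 19 to 27 in HBB cell bodies, and 20 to 36 against 14 to 19 in protrusions. Its log2 CPM did not overlap between the lines in either fraction, and the differences were 1.01 ± 0.19 in cell bodies (adjusted p = 0.00207) and 0.80 ± 0.22 in protrusions (adjusted p = 0.0343). The protrusion call ended after quantile normalization, without library scaling, and without any of 5 samples, for example 0.69 (adjusted p = 0.0942) without Pkp4 cUTR protrusion replicate 4. Hspa12a, with 4 to 24 reads the weakest member, had −0.82 ± 0.27 and −0.93 ± 0.30 (adjusted p = 0.0662 and 0.067).

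Hspa9 was higher in Pkp4 cUTR cells by 0.35 ± 0.09 in cell bodies (adjusted p = 0.0193) and 0.38 ± 0.09 in protrusions (adjusted p = 0.0151), and Dnajb2 was lower by 0.32 and 0.34 on the log2 scale (−0.32 ± 0.08 and −0.34 ± 0.08, adjusted p = 0.0118 and 0.0138). Both were apart in both fractions. The Hspa9 call ended in cell bodies without HBB replicate 4 (0.28, adjusted p = 0.0606) or Pkp4 cUTR replicate 1 (0.29, adjusted p = 0.0786), and in protrusions without Pkp4 cUTR replicate 2 (0.33, adjusted p = 0.0597). That of Dnajb2 ended in protrusions without HBB replicate 4 (−0.31, adjusted p = 0.0506) or Pkp4 cUTR replicate 2 (−0.29, adjusted p = 0.0565).

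The remaining calls were close to the threshold. In cell bodies these were Cct8 (0.32 ± 0.10, adjusted p = 0.0448), Hsp90ab1 (0.24 ± 0.07, adjusted p = 0.0457) and Dnajc24 (0.38 ± 0.10, adjusted p = 0.0187), which ended without any of 11, 10 and 3 samples. Cct8 also lost its call without library scaling and Hsp90ab1 after quantile normalization. In protrusions Hspb7 was lower in Pkp4 cUTR cells (−0.68 ± 0.20, adjusted p = 0.0421) and lost its call without any of 9 samples. In cell bodies it had −0.64 ± 0.20 (adjusted p = 0.0507), which passed with the replicate block (−0.66, adjusted p = 0.016). The block also added Hspa14, a ribosome-associated HSP70, in cell bodies (0.24) and Hspa2 in protrusions (−0.32, adjusted p = 0.0457), and removed no call. It gave 10 members in cell bodies, 14.9% beside 11.2% of all RNAs, 8 higher (11.9% beside 4.7%) and 2 lower (2.99% beside 6.51%). In protrusions it gave 7, 10.4% beside 10.3%, 4 higher (5.97% beside 4.47%) and 3 lower (4.48% beside 5.87%).

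**Figure D5:**
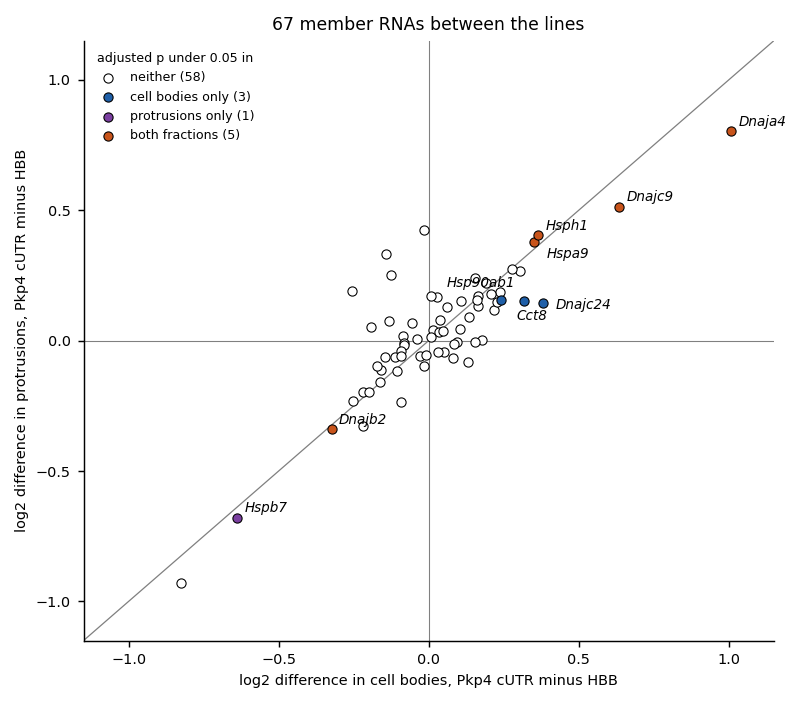
Log2 difference of Pkp4 cUTR minus HBB cells for the 67 members, in cell bodies (horizontal axis) and protrusions (vertical axis), with the line of equal differences drawn. Colour shows in which fraction a member passed an adjusted p of 0.05, 5 in both, 3 in cell bodies only, 1 in protrusions only and 58 in neither. The 5 called in both fractions lie near the diagonal, from Dnajb2 at −0.32 and −0.34 to Dnaja4 at 1.01 and 0.80.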

How the data were processed

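RNA of 4 protrusion and 4 cell body samples from each of 2 NIH/3T3 lines was sequenced. The authors aligned reads to mm10 with STAR 2.4.2a, counted them per gene with Rsubread, kept RNAs above 0.5 log2 CPM in at least 1 sample, and deposited log2 CPM from limma-voom (limma 3.26.1) for 12900 RNAs. The method of their library scaling is not given in the sources used here, but factors by the trimmed mean of M values (TMM), recomputed here, equalled it.

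From these log2 CPM the whole reads were recovered, all within 0.01 of an integer, and fitted with limma 3.58.1 in R 4.3.3 (voom weights, the authors' scaled library sizes, 1 mean per group, 16 samples, Benjamini-Hochberg over 12900 RNAs). The fit was tested on simulated reads. P-values set each difference against the spread between the replicates of a group, which came from a single line per construct. Same-numbered samples of the lines correlated in their deviations (0.331 to 0.628 in cell bodies, 0.196 to 0.392 in protrusions), so a shared replicate block was also fitted. Positions, lengths and overlaps came from GENCODE on GRCm38, matched by symbol for all 67 members, near-identity (at least 95% over 100 bases) from BLAST 2.17.0, and promoters from RefSeq.

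The members and lists were chosen with earlier results of these data known. Named were all TRiC, HSP90, HSP110, small HSP and mitochondrial chaperonin RNAs, the 6 highest and 6 lowest of the other HSP70 and J proteins with a mean log2 CPM above 0.5, and the 3 smallest p of the other 3 comparisons. Hspb11, Hspa8, Hspa9, Hspa1b and the other members named outside this rule were chosen after their values were seen.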

Additional observations from a re-analysis of the deposited data

Results flagged for a closer look

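In 5 of 136 groups of 4 samples a single sample lay far from the other 3, where chance gives about 1 in 20, and 4 of the 5 were HBB cell bodies. The gap to the nearest sample as a share of the range was 0.92 for Cct7 (8.93 log2 CPM in HBB cell body replicate 4, the others 8.71 to 8.73), 0.853 for Hsp90b1 (6.37 in HBB cell body replicate 1, the others 5.92 to 5.99), 0.862 for Hspb2 (0.94 in HBB cell body replicate 3, the others 1.16 to 1.19), 0.854 for Dnajc16 (5.07 in HBB cell body replicate 4, the others 5.21 to 5.24) and 0.966 for Hspa1a (2.53 in Pkp4 cUTR cell body replicate 4, the others 2.90 to 2.91).

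The enrichment in protrusions differed between the lines at an unadjusted p under 0.05 for 3 of the 67 members, each more enriched in Pkp4 cUTR cells, with a log2(Diff FC) of 0.472 for Hsp90aa1, 0.449 for Hspa4l and 0.439 for Hsp90b1. None passed after adjustment over all 12900 RNAs in limma.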

How the results depend on the processing

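The counts of called members ranged with single samples left out from 38 to 46 for enrichment in HBB (44 with all samples), 41 to 47 in Pkp4 cUTR cells (43), 0 to 0 for the difference of enrichment (0), 4 to 10 between cell bodies of the lines (8) and 3 to 9 between protrusions (6). Without both replicate 4 cell bodies the count between protrusions was 10. The study's fold threshold, taken in either direction, gave 5 members in each line, and an unadjusted p under 0.1 alone gave 4 for the difference. A replicate block per line gave 42 members in HBB and 44 in Pkp4 cUTR cells. Within a line the deviations of same-numbered fractions correlated at 0.0455 to 0.389 (mean 0.178) in HBB and −0.362 to 0.00248 (mean −0.161) in Pkp4 cUTR cells. The lines thus differed in sign, and the labels do not say whether the numbers pair the fractions. The shared block between the lines gave 10 members in cell bodies and 7 in protrusions. Over all alternatives 31 of 44 calls in HBB and 28 of 43 in Pkp4 cUTR cells remained.

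Of 4250 recomputed values of single members 4143 stayed on the same side of the threshold, and those called in both fits kept their direction. Another 62 lost and 42 gained the call. Called values turned round in 3 cases: Hsp90ab1 after quantile normalization (−0.16 in HBB, −0.20 in Pkp4 cUTR) and Cct3 in Pkp4 cUTR without library scaling (−0.039). A change of sign in a value called in neither fit was not counted. The causes were not tested. TMM factors from the recovered reads equalled the authors' scaling. The planned edgeR and DESeq2 fits were not run, although whole reads were recovered from the deposited log2 CPM. Depth limits Hspa12a (4 to 24 reads), Dnaja4 (14 to 59) and Dnajc19 (17 to 47) most.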
